A study of Homo sapiens with 5 samples.

Results

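The androgen synthesis and conversion enzymes are 10 genes, HSD3B1, HSD3B2, CYP17A1, STS, HSD17B3, AKR1C3, HSD17B4, HSD17B6, SRD5A1 and SRD5A3, chosen by name from the 58812 genes in a table of read counts. RNA was sequenced from C4-2B, a line grown from metastatic, castration-resistant prostate cancer, as 5 libraries: 2 of parental cells, 2 of the clone C4K13A and 1 of the clone C5K13A. Both clones carry the K13A mutant of HOXB13, a homeobox transcription factor of the prostate, in which lysine 13 is replaced by alanine. All cells were grown in C4-2B medium, and no treatment or time separates the groups. Each mutant group is 1 clone, so clone and mutation cannot be told apart within it. Nothing in the labels says that the replicates were separate cultures. The p-values therefore rest on library-to-library spread, which may be technical. Where both clones were pooled as 1 group, that spread also holds the difference between the clones.

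Androgens are made from cholesterol-derived precursors in the testis and adrenal gland, and prostate tumours deprived of testicular testosterone can make them from adrenal precursors. CYP17A1 is the hydroxylase and lyase that makes dehydroepiandrosterone (DHEA), STS frees DHEA from its circulating sulfate, and HSD3B1 and HSD3B2 turn it into androstenedione. HSD17B3 and AKR1C3 reduce androstenedione to testosterone, and steroid reductases of the SRD5A family make dihydrotestosterone, the strongest ligand of the androgen receptor.

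Of the 10 genes, 6 had enough reads for a test in every comparison, and 4 (HSD17B3, HSD3B2, CYP17A1 and AKR1C3) had under 20 reads over all 5 libraries. Total counts ran from 43190276 to 57282373 per library, and 27337 to 30647 genes had at least 1 count. Mitochondrial ribosomal RNA, a residue of the ribosomal RNA depletion, was at 29 and 65.4 CPM (a gene's reads scaled to the library total) in parental 1 and C4K13A 1 but at 1723, 353 and 658 CPM in parental 2, C4K13A 2 and C5K13A. Small counts were mostly even numbers (68.8% to 71.6% of counts from 1 to 10), so counting intervals, which treat every read as independent, are too narrow. HOXB13 itself was at 338, 449, 344, 343 and 354 CPM in parental 1, parental 2, C4K13A 1, C4K13A 2 and C5K13A (log2 difference of all K13A libraries from parental -0.18 ± 0.17 (SE), edgeR adjusted p = 0.739), and gene counts cannot show a single-residue change. All 10 prostate luminal markers examined were above 1 CPM on average, with a summed level of 5453 to 7545 CPM. In contrast, the 5 leukocyte markers summed to 0.119 to 0.323 CPM, and of 8 markers of steroidogenic adrenal or gonadal cells only CYP11A1 was above 1 CPM, while CYP11B1, INSL3 and LHCGR had 0 reads. In bulk RNA, more cells with a transcript and more transcript per cell cannot be told apart.

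Levels were compared between genes in TPM, which divides reads by the length of each gene's exons before scaling to the library. HSD17B4 was the most abundant of the 10 at 38.3 ± 7.09 TPM (SD over 5 libraries), followed by SRD5A3 at 15.2 ± 2.69, STS at 8.42 ± 1.63 and SRD5A1 at 5.36 ± 0.545 TPM. Each of these 4 lay above the next in the order in 5 of 5 libraries. HSD17B6 (3.01 ± 0.676 TPM) and HSD3B1 (1.65 ± 1.64 TPM) were not separated, since HSD17B6 was the higher in 3 of 5 libraries. The remaining enzymes averaged 0.0356 TPM (HSD17B3), 0.0285 TPM (HSD3B2), 0.0191 TPM (CYP17A1) and 0.0103 TPM (AKR1C3), and their order carries no weight at so few reads. Among protein-coding genes with any read, HSD17B4 stood at percentile 86.7 and SRD5A3 at 71.2, while AKR1C3 stood at 7.39. In TPM, HSD17B4 took 48.1% to 56.6% of the summed level of the 10 genes. That sum was 58.0 and 61.8 TPM in the parental libraries, 78.4 and 85.0 TPM in the C4K13A libraries and 77 TPM in C5K13A. Both the share and the sum depend on the length used. The exons of HSD17B4 sum to 10664 bases, but its longest protein-coding transcript has 2881. Per kb of that transcript HSD17B4 averaged 68.8 CPM, beside 7.79 CPM for SRD5A3, so its share would be larger.

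**Figure D1:**
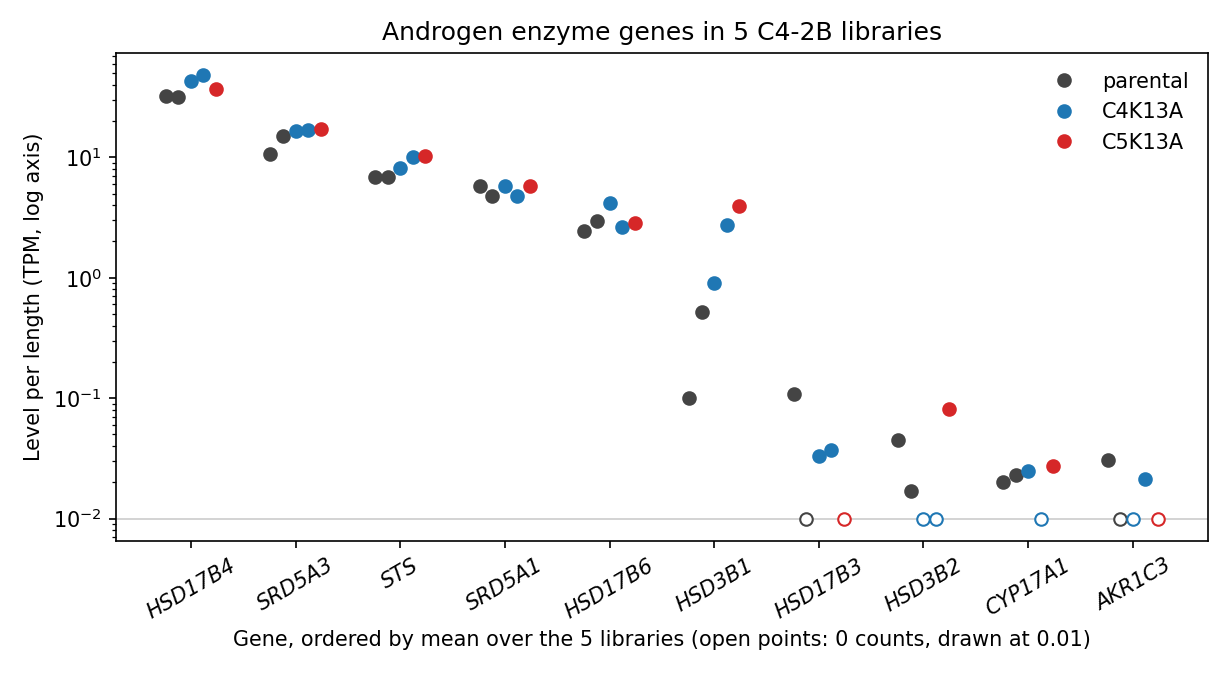
Level of each enzyme gene in each library (TPM, log axis), with genes ordered by their mean over the 5 libraries; each point is 1 library, and open points are libraries with 0 reads, drawn at 0.01. HSD17B4 is at the top in every library, HSD3B1 has the widest spread of the 6 tested genes with all 3 K13A points above both parental points, and the last 4 genes rest on under 20 reads each.

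The enzymes also differ in the DNA at their starts. The windows below, from RefSeq on GRCh38.p14, hold 300 bases around each start, nearly all upstream of it and read on the plus strand, with every CG dinucleotide in capitals, and they show the 2 most abundant enzymes beside the HSD3B pair, which are neighbours on chromosome 1.
SRD5A3: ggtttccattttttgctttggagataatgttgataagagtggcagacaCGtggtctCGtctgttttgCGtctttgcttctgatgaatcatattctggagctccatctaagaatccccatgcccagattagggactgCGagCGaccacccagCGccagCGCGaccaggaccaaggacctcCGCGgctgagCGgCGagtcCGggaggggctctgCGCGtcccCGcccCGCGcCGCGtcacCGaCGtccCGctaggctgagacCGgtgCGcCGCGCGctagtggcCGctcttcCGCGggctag
HSD17B4: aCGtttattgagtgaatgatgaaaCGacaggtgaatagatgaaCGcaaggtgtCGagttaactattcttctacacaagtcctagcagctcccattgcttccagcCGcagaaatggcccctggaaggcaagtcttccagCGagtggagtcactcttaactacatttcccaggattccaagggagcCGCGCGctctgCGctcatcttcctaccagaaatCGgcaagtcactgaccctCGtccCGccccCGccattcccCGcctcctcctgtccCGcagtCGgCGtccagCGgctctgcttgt
HSD3B1: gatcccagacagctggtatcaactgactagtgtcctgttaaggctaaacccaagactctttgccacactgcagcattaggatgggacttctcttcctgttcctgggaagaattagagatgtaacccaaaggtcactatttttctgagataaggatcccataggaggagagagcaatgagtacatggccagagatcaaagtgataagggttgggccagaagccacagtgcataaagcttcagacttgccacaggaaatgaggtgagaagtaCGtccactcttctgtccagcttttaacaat
HSD3B2: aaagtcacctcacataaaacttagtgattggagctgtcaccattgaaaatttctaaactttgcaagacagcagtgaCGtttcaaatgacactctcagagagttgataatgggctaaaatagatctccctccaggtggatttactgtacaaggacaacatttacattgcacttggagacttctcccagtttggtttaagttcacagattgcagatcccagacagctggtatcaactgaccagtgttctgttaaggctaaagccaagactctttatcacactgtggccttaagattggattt
They lie at chr4:55345992-55346291, chr5:119452247-119452546, chr1:119506953-119507252 and chr1:119414681-119414980. The SRD5A3 window holds 31 CG dinucleotides and that of HSD17B4 19, against a median of 14 over 27305 genes. The HSD3B1 and HSD3B2 windows hold 1 each. The RefSeq table has 9 of the 10 enzymes. Of the others in it, SRD5A1 had 33, HSD17B3 and CYP17A1 3 each, and AKR1C3 0 at both of its starts. STS had between 1 and 23 over 5 starts. Its windows with 6 and 23, from bases 7147040 and 7147462 of chromosome X, lie upstream of the gene span given below (7219456 to 7354810). Those from 7219206, 7251994 and 7252223 held 5, 1 and 3. The 4 enzymes with almost no reads therefore all had 3 CG dinucleotides or fewer at their starts. So did HSD3B1 and some starts of STS, and both of these genes were expressed. Over all genes, 19.0% had fewer than 3 CG dinucleotides and 30.5% fewer than 5.

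The HSD3B pair share sequence that is out of register with their starts. The first bases of the HSD3B1 window (positions -250 to -162) match positions -39 to 50 of the HSD3B2 window at 78 of 89 bases, or 87.6%. Motifs were searched on both strands of each window as exact letters. CAATAAA, a form of the HOXB13 core site, occurred among these enzymes only in HSD17B4 (at -247 on the minus strand), and in 4.0% of all 35116 RefSeq windows of that length. TCGTAAA, the methylated-CG form, occurred in none of them and in 0.541% of all windows. AGAACA, the repeated unit of the androgen response element, occurred in HSD3B2 and in 2 of the 5 STS windows, and in 14.8% of all windows. TGACNNNGC, the antioxidant response element bound by NRF2, occurred in SRD5A3 and 1 STS window (13.3% of all windows). TATAAA, the letters of the TATA box, occurred on either strand in 11.5% of all windows. It ran with the gene only in 1 STS window (at -103). In HSD17B3 (at -195) and 1 AKR1C3 window (at -26) it ran against the gene. A match of letters is not a bound site, and no match says only that these letters are not in the window.

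**Figure D2:**
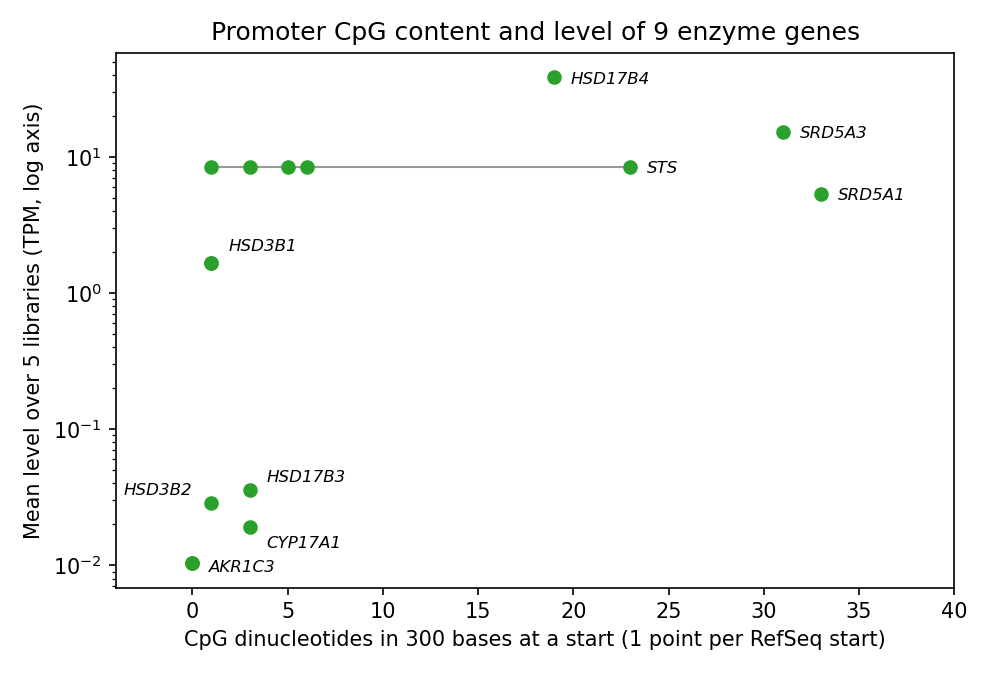
CG dinucleotides in the 300 bases at each RefSeq start (horizontal axis) against the mean level of the gene over 5 libraries (TPM, vertical log axis) for 9 enzymes; each point is 1 start, and a line joins the 5 starts of STS. HSD3B1 and HSD3B2 both have 1 CG dinucleotide and lie far apart in level, so the points describe 9 genes and no test was made.

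HSD3B1 was the enzyme whose level differed most between libraries among the 6 that could be tested. The gene is on chromosome 1 (119507198 to 119515054, plus strand, GRCh38 with GENCODE v29) and encodes the 3-beta-hydroxysteroid dehydrogenase of placenta, skin and prostate. It had 7 reads in parental 1 and 32 in parental 2, 52 and 141 in C4K13A 1 and 2, and 204 in C5K13A. In CPM these were 0.118 (95% Poisson interval 0.0475 to 0.244), 0.631 (0.431 to 0.890), 1.04 (0.774 to 1.36), 3.25 (2.74 to 3.84) and 4.84 (4.20 to 5.55). All 3 mutant libraries lay above both parental libraries, and the 5 values were spread 40.9-fold from lowest to highest. The parental mean was 0.374 ± 0.362 CPM (SD, n = 2) and that of all K13A libraries 3.04 ± 1.91 CPM (SD, n = 3). The log2 difference was 3.04 ± 0.84 (SE; 95% interval 1.10 to 4.98), or 8.21-fold. This fitted size rests on few parental reads, and the gene reached the filter through the K13A libraries. The difference did not pass the test (edgeR adjusted p = 0.260, or 0.00690 before adjustment).

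The same gene in each clone gave a log2 difference of 2.54 ± 0.79 for C4K13A (95% interval 0.73 to 4.35, edgeR adjusted p = 0.240) and 3.70 ± 0.88 for C5K13A (1.68 to 5.73, adjusted p = 0.378), with the same 2 parental libraries in both. The clones differed from each other by 1.16 ± 0.84 (C5K13A minus C4K13A, -0.76 to 3.09, adjusted p = 0.918). That difference was 0.56 without C4K13A 1, 2.21 without C4K13A 2 and 0.43 with the ribosomal RNA split, described next, as a covariate, and none of these passed. The 2 parental libraries differed 5.34-fold and the 2 C4K13A libraries 3.14-fold. In both groups the library with more mitochondrial ribosomal RNA was the higher, and the part of that difference in the result was not tested beyond the following values. Set against the parental library on the same side of that split, HSD3B1 was 8.77-fold higher in C4K13A 1, 5.16-fold in C4K13A 2 and 7.67-fold in C5K13A. With the split as a covariate the adjusted p for all K13A libraries was 0.0479, and DESeq2 gave 0.00493. For C4K13A the log2 difference was 4.16 without parental 2, 3.15 without C4K13A 1, 1.77 without parental 1 and 1.49 without C4K13A 2. For C5K13A it was 5.32 without parental 2, 3.71 without C4K13A 1, 3.70 without C4K13A 2 and 2.93 without parental 1. For each clone, whether HSD3B1 passed changed with the library left out. For all K13A libraries it did not pass with any library left out. Such fits have fewer residual degrees of freedom, and for C5K13A each called more genes over all genes than the reported fit. So did the C4K13A fits with a library left out in which HSD3B1 passed. Over all alternatives the log2 difference for all K13A libraries ran from 2.27 (without parental 1, adjusted p = 0.893) to 4.66 (without parental 2, adjusted p = 0.114).

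HSD3B2, the adrenal and gonadal form of the same enzyme and an upstream neighbour on the same strand, had 3, 1, 0, 0 and 4 reads in parental 1, parental 2, C4K13A 1, C4K13A 2 and C5K13A. A count of 3 reads corresponds to 0.0507 to 0.0712 CPM in these libraries, and no difference was detectable at this depth. Of all 50-base runs of HSD3B1 transcripts, 3.95% also occur in HSD3B2 transcripts, a small part of their length. The genes around HSD3B1 were looked up after its values were seen. Of 25 genes with bodies within 300 kb, 6 were tested for all K13A libraries, HSD3B1 among them. HAO2, a peroxisomal hydroxyacid oxidase upstream of HSD3B2, had only 56 reads in all and the nearest fitted difference to HSD3B1 (2.29, edgeR adjusted p = 0.429). PHGDH, the first enzyme of serine synthesis, had a log2 difference of -0.58 (adjusted p = 0.379).

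CYP17A1, upstream of the HSD3B enzymes in the pathway, had 2, 2, 2, 0 and 2 reads in the order given above. Its exons share 1417 bases with the opposite-strand gene WBP1L, and the strand setting of the counting is not given. Reads on the shared bases could therefore belong to either gene or have gone uncounted. No CYP17A1 expression was therefore shown in any library.

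STS, the steroid sulfatase on chromosome X (7219456 to 7354810), was at 21.7 and 22.4 CPM in parental cells, 24.7 and 31.4 CPM in the C4K13A libraries and 33.4 CPM in C5K13A. Every mutant library lay above both parental libraries. The means were 22.0 ± 0.492 (SD, n = 2) and 29.8 ± 4.57 CPM (SD, n = 3), a log2 difference of 0.44 ± 0.18 (95% interval 0.03 to 0.86; edgeR adjusted p = 0.431, or 0.0399 before adjustment). The difference was 0.36 ± 0.20 for C4K13A (adjusted p = 0.525) and 0.60 ± 0.24 for C5K13A (adjusted p = 0.734). Sulfation and sulfatase activation, a list of 8 other genes, had 6 tested, 0 called in any comparison and a median of -0.03 for all K13A libraries. SUMF1, which activates sulfatases in the endoplasmic reticulum, was at 42.9 ± 6.62 CPM in parental (SD, n = 2) and 37.1 ± 11.1 CPM in K13A libraries (SD, n = 3), with overlapping libraries, and its paralogue SUMF2 was at 146 ± 23.7 and 167 ± 33.5 CPM.

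HSD17B3, the testicular enzyme that makes testosterone, had 8, 0, 2, 2 and 0 reads, and AKR1C3, the enzyme that does so in adrenal-fed tumours, had 4, 0, 0, 2 and 0. Of the 50-base runs of HSD17B3 transcripts 66.7% also occur in another gene. AL160269.1, which shares 1710 bases of the HSD17B3 exons, is not among the genes counted. The opposite-strand gene HSD17B3-AS1, which shares 846 bases, is among them. The related reductases AKR1C1, AKR1C2 and AKR1C4 had 5, 10 and 2 reads over all libraries, and HSD17B2, which oxidises testosterone back, had 7. Neither of the textbook testosterone-forming enzymes was thus above the level of a few reads, and no difference between groups was detectable.

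HSD17B4 (chromosome 5, 119452443 to 119637199) encodes a peroxisomal enzyme that oxidises active steroids and shortens branched and very long fatty acids. It was at 166 and 168 CPM in parental cells, 213 and 247 CPM in C4K13A libraries and 198 CPM in that of C5K13A. The mutant libraries were all above the parental ones, which differed from each other 1.01-fold. The log2 difference was 0.40 ± 0.16 (95% interval 0.02 to 0.77; edgeR adjusted p = 0.432, or 0.0403 before adjustment) over all K13A libraries. It was 0.47 ± 0.18 in C4K13A (adjusted p = 0.347) and 0.24 ± 0.22 in C5K13A (adjusted p = 0.877). The other peroxisomal beta-oxidation genes, 12 listed and tested, had 0 called in any comparison, 8 positive differences and a median of 0.25 for all K13A libraries. PEX5, the receptor that imports peroxisomal enzymes, was at 93.0 ± 3.81 CPM in parental (SD, n = 2) and 90.7 ± 5.44 CPM in K13A libraries (SD, n = 3).

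HSD17B6 (chromosome 12, 56752161 to 56787790), which oxidises androstanediol back to dihydrotestosterone, was at 2.68 and 3.35 CPM in parental cells, 4.4 and 2.91 CPM in C4K13A libraries and 3.23 CPM in that of C5K13A. The groups overlapped, and the log2 difference was 0.23 ± 0.30 (95% interval -0.47 to 0.93; edgeR adjusted p = 0.824). This interval leaves room for differences of up to 1.90-fold in one direction and 0.720-fold in the other.

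SRD5A3 (chromosome 4, 55346109 to 55373096) reduces polyprenol to dolichol, the lipid that carries sugars for protein glycosylation, and is also classed with the steroid reductases. It was at 22.8 and 33.0 CPM in parental cells, 34.0 and 35.6 CPM in C4K13A libraries and 37.8 CPM in that of C5K13A. The K13A libraries sat close together above both parental ones, with parental 2 just under the lowest of them. The log2 difference was 0.37 ± 0.19 (95% interval -0.07 to 0.81; edgeR adjusted p = 0.520), and it was 0.12 without parental 1 and 0.66 without parental 2. The dolichol pathway partners, 10 listed and tested, had 0 called in any comparison, with a median of 0.14 and 8 positive differences for all K13A libraries. DOLK, the dolichol kinase, was at 48.2 ± 10 CPM in parental (SD, n = 2) and 61.7 ± 5.75 CPM in K13A libraries (SD, n = 3), and ALG1 at 51.1 ± 8.51 and 53.9 ± 13.8 CPM.

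SRD5A1 (chromosome 5, 6633343 to 6674386), the steroid reductase that predominates in castration-resistant prostate cancer, was at 21.8 and 18.4 CPM in parental cells, 20.6 and 17.6 CPM in C4K13A libraries and 22.2 CPM in that of C5K13A. Its group means were 20.1 ± 2.41 (SD, n = 2) and 20.1 ± 2.30 CPM (SD, n = 3), and the log2 difference of 0.01 ± 0.18 had a 95% interval of -0.40 to 0.42 (edgeR adjusted p = 0.993). SRD5A2, the form of normal prostate, had 0 reads in every library. SRD5A1 and SRD5A3 were present at a ratio of 0.284 to 0.547 (TPM).

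Over the 6 enzymes tested, 0 passed the adjusted threshold of 0.05 in any of the 4 comparisons by edgeR's quasi-likelihood test. In all K13A libraries against parental, 0.203% of 20649 genes passed. At an unadjusted p under 0.05 the enzymes counted were 3 of 6 (HSD3B1, HSD17B4 and STS), beside 11.0% of all genes. DESeq2 called 1 of the 6 (HSD3B1), beside 555 of the 20649 genes. For C4K13A 0.699% of 22743 genes passed, with 2 of 6 enzymes and 12.2% of genes under an unadjusted 0.05. For C5K13A against parental 0.0484% passed, with 2 of 6 and 6.45%, and between the clones 0.0660% passed, with 0 of 6 and 6.42%. In DESeq2 HSD3B1 was also the 1 enzyme called in each clone against parental, and none was called between the clones. Of the 22743 genes DESeq2 called 745 for C4K13A, 235 for C5K13A and 182 between the clones, more than edgeR in each.

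In all K13A libraries against parental, 4 of the 6 enzymes (HSD3B1, HSD17B4, STS and SRD5A3) had every K13A library above every parental library and 0 had the reverse. Over all genes tested 13.5% were higher without overlap and 15.0% lower. The median log2 difference of the 6 was 0.38, beside -0.0047 for all genes, with 6 of 6 positive beside 49.4% of all genes. Against the same parental libraries, each clone alone gave a median of 0.34. HSD3B1 reached the filter through the K13A libraries, as 1 parental library had only 7 reads, so these counts describe the enzymes that could be tested and do not support a difference of the group.

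**Figure D3:**
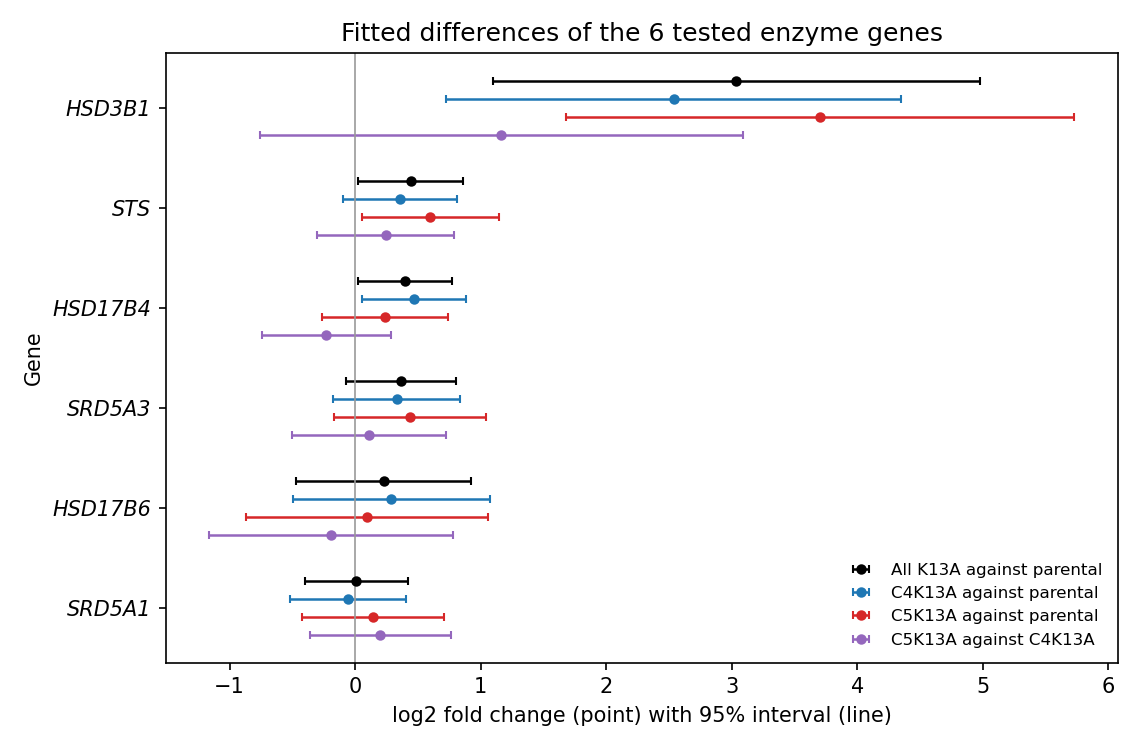
Fitted log2 difference (points) with its 95% interval (lines) for the 6 tested enzymes in the 4 comparisons, which share libraries. HSD3B1 has the largest differences and the widest intervals, from 1.10 to 4.98 for all K13A libraries, and SRD5A1 is centred near 0.

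The rest of the pathway was described from lists of other steroid genes. Of 10 genes that bring cholesterol to pregnenolone or donate electrons, 8 were tested for all K13A libraries and 0 called in any comparison. CYB5A, the cytochrome that aids the lyase step of CYP17A1, was at 131 and 192 CPM in parental cells, 212 and 287 CPM in C4K13A libraries and 293 CPM in that of C5K13A (log2 difference 0.72 ± 0.22, edgeR adjusted p = 0.308). TSPO, the outer mitochondrial membrane protein linked to cholesterol import, was at 128 ± 2.13 CPM (SD, n = 2) and 151 ± 24.1 CPM (SD, n = 3). Of 18 other steroid oxidoreductases 11 were tested and 0 called in any comparison, with a median of -0.34 and 4 positive for all K13A libraries. RDH11, a retinal reductase of the prostate, was at 172 ± 71.5 and 134 ± 18.9 CPM, and HSD17B10, a mitochondrial dehydrogenase, at 93.0 ± 23.1 and 87.8 ± 11.9 CPM. Of 10 other steroid hydroxylases and related enzymes 3 were tested for all K13A libraries and 0 called in any comparison, and HSD11B2, which inactivates cortisol, was at 43.9 ± 9.01 and 47.5 ± 17.3 CPM. CYP1B1, an estrogen hydroxylase, was at 2.92 and 5.32 CPM in parental cells. It was at 9.76 and 18.9 CPM in C4K13A libraries but at 5.88 CPM in that of C5K13A. Its log2 difference for all K13A libraries was 1.49 ± 0.50 (edgeR adjusted p = 0.337).

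Of 6 steroid uptake carriers 4 were tested in C4K13A against parental, and 1, SLCO3A1, fell. This organic anion transporter was at 6.72 and 5.95 CPM in parental cells, 0.418 and 0.0461 CPM in C4K13A libraries and 1.54 CPM in that of C5K13A, a log2 difference of -4.71 ± 0.69 for C4K13A (edgeR adjusted p = 0.0296). The fitted size rests on few reads in C4K13A, being -7.00 without C4K13A 1 and -3.90 without C4K13A 2, and the call was lost with a filter of 5 CPM (adjusted p = 0.0979). For C5K13A it was -2.04 (adjusted p = 0.713), and the difference between the clones was 2.67 (adjusted p = 0.567).

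Of 7 androgen glucuronidation genes 5 were tested, and UGT2B17, which conjugates testosterone and dihydrotestosterone for export, differed between the clones. It was at 0.726 and 1.01 CPM in parental cells, 0.0399 and 0.0461 CPM in C4K13A libraries and 6.19 CPM in that of C5K13A. It fell in C4K13A (log2 difference -4.25 ± 0.55, edgeR adjusted p = 0.0197) and differed between the clones by 7.08 ± 0.58 (adjusted p = 0.0246), while 2.84 for C5K13A against parental did not pass (adjusted p = 0.130). The C4K13A libraries held 2 reads each, under the floor of 3, so the fitted sizes of both differences depend on the fit's handling of low counts and are not measured folds. The fall in C4K13A was not called without C5K13A (edgeR adjusted p = 0.0610) or with a filter of 5 CPM (adjusted p = 0.107). UGT2B genes are near copies of each other, and reads may be split between them. UGT2B15 was at 1.32, 2.27, 0.399, 0.162 and 6.14 CPM in the same order of libraries.

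Of 10 genes of the androgen receptor and its response, all tested, FKBP5 rose in C4K13A. This co-chaperone gene, a direct androgen target, was at 157 and 220 CPM in parental cells, 531 and 447 CPM in C4K13A libraries and 273 CPM in that of C5K13A, a log2 difference of 1.39 ± 0.22 for C4K13A (edgeR adjusted p = 0.0421). It was not called without C4K13A 1 (1.27, edgeR adjusted p = 0.0836), without C5K13A (1.39, adjusted p = 0.0526), with a filter of 5 CPM (1.36, adjusted p = 0.0772) or with counts halved and rounded (1.39, adjusted p = 0.0521). For C5K13A the difference was 0.53 (adjusted p = 0.787), and between the clones -0.85 (adjusted p = 0.667). No other gene of the 10 was called in any comparison. The median of the 10 was -0.12 for all K13A libraries (4 positive) and -0.06 for C4K13A (4 positive). For C5K13A it was -0.29 (2 positive), and between the clones -0.88 (1 positive). Of 14 targets of NRF2, the factor for which AKR1C genes are known targets, 11 were tested and 0 called in any comparison, with a median of 0.02. TXNRD1 was at 298 ± 26.6 CPM in parental (SD, n = 2) and 270 ± 16.9 CPM in K13A libraries (SD, n = 3), and TALDO1 at 260.1 ± 7.77 and 280.3 ± 15.3 CPM.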

How the data were processed

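RNA depleted of ribosomal RNA with RiboErase was sequenced on an Illumina HiSeq, per the labels' protocols. Reads were handled by the authors with STAR 2.5, featureCounts 1.4.6-p5 (Subread) and bcl2fastq, per the submitters' processing notes. For the build, annotation, strand setting and multiply aligned reads, the choice is not given in the sources used here. Raw counts of reads per gene were deposited. Symbols and exon lengths came from GENCODE v29 (GRCh38), which held 55297 of 58812 IDs.

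Counts were tested over all genes with the quasi-likelihood test of edgeR 4.0.16 in R 4.3.3 (genes kept by filterByExpr, TMM factors, Benjamini-Hochberg adjustment, threshold 0.05), as 2 groups for all K13A libraries (3 residual degrees of freedom) and as 3 groups for single clones (2 residual degrees of freedom, the lone C5K13A library being assumed to vary like the others). The scripts were tested on simulated counts. DESeq2 1.42.0, other filters and scalings, the ribosomal RNA split (at 200 CPM), a replicate block and leaving out each library were alternatives. CPM use TMM factors, and TPM use exon lengths summed over all transcripts; the longest protein-coding transcript gave the same order of enzymes. Intervals of a count are exact Poisson intervals and cover counting error only.

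The members and lists were chosen with earlier results of these data known. Named genes were all members and, from each other list, up to 4 called genes or else the 2 with the highest mean level (1 such gene is not reported here); UGT2B15, SRD5A2, HSD17B2, the other AKR1C genes and the neighbours of HSD3B1 were named after their values were seen. Genes most like a member in pattern were to be named for members with a mean of at least 5 CPM and a spread of at least 2-fold over the libraries, which no member met. Marker lists beside those given in the report were basal (summed 9.8 to 20.8 CPM, only DST above 1 CPM), fibroblast (5.05 to 7.00 CPM, LUM at 0 reads) and endothelial (2.63 to 5.74 CPM).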

Additional observations from a re-analysis of the deposited data

Results flagged for a closer look

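UGT2B17 differed between the 2 clones by the test of the difference itself, with C5K13A higher than C4K13A by 7.08 on the log2 scale (edgeR's quasi-likelihood test, adjusted p = 0.0246), and the call was lost only with a filter of 5 CPM (7.07, adjusted p = 0.203) among the 11 alternatives run. The C4K13A libraries held 2 reads each, so the size of this difference is a fitted value and not a measured fold.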

How the results depend on the processing

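Over all alternatives for the 6 enzymes and 4 comparisons, 261 values kept their direction and side of the threshold. Another 15, all of HSD3B1, passed it where the reported value did not. The other 10 changed sign, from reported log2 differences between -0.193 and 0.289 that had not passed. HSD3B1 stayed higher than parental wherever it was fitted. Its adjusted p without a filter on low counts was 8.88e-08 for all K13A libraries, 1.63e-05 for C4K13A and 3.19e-09 for C5K13A, and a filter of 5 CPM removed it. SRD5A1 in all K13A libraries turned to -0.036 with a 5 CPM filter and ran from -0.106 to 0.137 without 1 library each; in C4K13A it ran from -0.176 to 0.068. HSD17B6 ran from -0.029 to 0.555 in C4K13A, from -0.059 to 0.263 in C5K13A and from -0.459 to 0.134 between the clones, and SRD5A3 between the clones turned to -0.050 when the ribosomal RNA split was a covariate. UGT2B17 in all K13A libraries, fitted at 1.26, turned to -0.18 with that covariate and -0.70 in the 3-group fit, and ran from -4.25 to 1.84 without 1 library each. The cause was not tested for any of these.

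The count of genes called over all genes tested moved with most settings. For all K13A libraries (42 reported) it was 1167 without a filter, 2 at 5 CPM, 555 by DESeq2, 71 with the covariate, 105 in the 3-group fit, 11 with the C4K13A libraries summed and 25 with counts halved and rounded, which was chosen after seeing the data; it was 0 (1194 at an unadjusted p under 0.05) to 130 without 1 library each. For C4K13A (159 reported) it was 1346, 32, 745 and 777 under the first 4 of these, and 130 to 1667 without 1 library each. Parental 1 and C4K13A 1, like parental 2 and C4K13A 2, share only a number, and the deviations of same-numbered libraries correlated at 0.199 over genes; with a replicate block the count for C4K13A was 885, and HSD3B1 was called (2.67, adjusted p = 0.00689). For C5K13A (11 reported) the counts were 578, 0 (704 at an unadjusted p under 0.05), 235 and 105, with 7 without mitochondrial, small and ribosomal RNA genes, 0 (1230 unadjusted) with halved counts and 41 to 668 without 1 library each. Between the clones (15 reported) they were 423, 0 (833 unadjusted), 182 and 92, with 6 with halved counts and 51 to 155 without 1 library each. These counts of 0 are edgeR's. For the 4 enzymes with under 20 reads, depth allows no statement on a difference.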
